A study of Mus musculus with 27 samples.

Results

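The genes described here are 33 members of the cell's antioxidant response: the transcription factor NRF2 (gene Nfe2l2), its inhibitor Keap1, and the enzymes and transporters that handle glutathione, thioredoxin, peroxides, superoxide, NADPH, heme and electrophiles. They were chosen by name, with earlier results of these data known. Those with a mean normalized count of at least 10 in a table were kept. Shares of members set beside those of all genes are therefore descriptions and not tests of the list. All 33 of 33 listed genes were kept in each of the 3 mRNA tables, in which 15595 (chylomicron-treated and control endothelial cells), 13630 (peritoneal macrophages) and 14217 (endothelial cells with SRBI knockdown) of 55291 listed genes passed the same minimum. The study sequenced polyadenylated RNA of mouse endothelial cells (EC) and mouse peritoneal macrophages (PMAC) in 18 of its 27 libraries, and the other libraries, miRNA from endothelial cell medium, are not used here. The 6 mRNA groups, each of 3 libraries, were EC labelled chylomicron-treated, EC labelled SRBI-knockdown, EC labelled control, PMAC labelled chylomicron-treated, PMAC labelled SRBI-knockdown and PMAC labelled control. Chylomicrons are the lipoproteins that carry dietary fat, and SRBI, the product of Scarb1, is a cell-surface receptor for lipoproteins. The labels give no strain, age, dose, time or line of cells, no method of knockdown, and no statement of which cells carried the knockdown in the macrophage libraries or whether knockdown libraries also met chylomicrons. They also do not say whether PMAC labelled chylomicron-treated met chylomicrons themselves or vesicles of treated EC, which the series title names. The extraction text names PL and PLA murine cell lines, which match no sample label, and this was not resolved.

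NRF2 is held in the cytoplasm by KEAP1, which presents it for degradation. Oxidants and electrophiles modify KEAP1, and NRF2 then enters the nucleus, pairs with small MAF proteins and binds the antioxidant response element upstream of its target genes, a place that the repressor BACH1 can also occupy. In macrophages the response is known for raising cystine uptake, glutathione synthesis and heme breakdown when the cells meet oxidized lipid, and in endothelium for limiting the oxidants that lipid-laden lipoproteins and inflammatory signals raise.

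The bases before the start of a promoter entry are shown for Slc7a11, which rose in both cell types. They are also shown for Gclm, Osgin1 and Srxn1, which fell in macrophages labelled SRBI-knockdown. RefSeq promoter entries of GRCm38.p6 matched 26 of the 33 genes, and the 250 bases before each start were searched on both strands for the core of the antioxidant response element, TGACNNNGC, and for the looser TGANNNNGC, which contains it. The strict core was in the entries of 7 of the 26 genes (26.9%), against 11.5% of the 27025 genes in the table, and the looser form in 15 of the 26 genes (57.7%), against 38.7% of all genes. Capitals mark each match in the lines that follow, which run 5′ to 3′ and end at the base before the start. Gclm, at chr3:122245307-122245556 on the plus strand, held the strict core on the opposite strand of the gene. Slc7a11, at chr3:50443614-50443863 on the minus strand, held the looser form at 2 places, Srxn1, at chr2:152105274-152105523 on the plus strand, at 3 places, and Osgin1, at chr8:119436897-119437146 on the plus strand, at 1 place. The entry of Nqo1 held neither in this window, and bases further upstream were not searched. An entry of Txnrd1, which did not pass the threshold in macrophages, held the strict core. By RefSeq spans the windows of Slc7a11 (span chr3:50364936-50499087) and Osgin1 (span chr8:119425882-119446257) lay inside the gene. That of Gclm (span chr3:122245487-122267215) reached past the first base of the span. The starts of these entries are thus not the outer starts of the genes. Hmox1, Gclc, Gsr, Prdx6, Sod3, Abcc1 and Gsta4 had no matched entry.
Slc7a11: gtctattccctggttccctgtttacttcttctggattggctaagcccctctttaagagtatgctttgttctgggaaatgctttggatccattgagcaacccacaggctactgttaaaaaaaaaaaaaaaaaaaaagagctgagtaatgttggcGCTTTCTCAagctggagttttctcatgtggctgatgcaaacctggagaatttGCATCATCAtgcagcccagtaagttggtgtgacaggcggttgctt
Gclm: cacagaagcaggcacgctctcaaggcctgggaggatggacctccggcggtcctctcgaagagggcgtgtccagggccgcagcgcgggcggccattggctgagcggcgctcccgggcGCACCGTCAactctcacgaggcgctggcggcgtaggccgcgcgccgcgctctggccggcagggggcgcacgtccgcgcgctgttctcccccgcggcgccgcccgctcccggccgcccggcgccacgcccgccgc
Srxn1: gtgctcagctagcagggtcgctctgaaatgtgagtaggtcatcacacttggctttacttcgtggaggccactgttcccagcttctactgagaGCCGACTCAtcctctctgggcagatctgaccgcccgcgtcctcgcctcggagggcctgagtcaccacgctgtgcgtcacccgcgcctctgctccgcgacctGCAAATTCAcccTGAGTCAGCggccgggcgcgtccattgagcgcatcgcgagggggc
Osgin1: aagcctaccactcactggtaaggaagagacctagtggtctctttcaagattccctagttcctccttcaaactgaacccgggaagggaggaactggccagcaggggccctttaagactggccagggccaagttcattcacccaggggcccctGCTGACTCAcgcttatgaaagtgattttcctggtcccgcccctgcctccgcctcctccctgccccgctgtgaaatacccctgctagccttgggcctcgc

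Reads assigned to genes ranged from 41903092 to 45457472 in chylomicron-treated EC, 16758727 to 20715157 in SRBI-knockdown EC, 40046820 to 46700757 in control EC, 30547284 to 38394674 in chylomicron-treated PMAC, 38332909 to 55874954 in SRBI-knockdown PMAC and 42775013 to 45991856 in control PMAC. Scarb1, the target of the knockdown, lay between 114 and 120.4 reads per 1000000 reads assigned to genes (RPM) in SRBI-knockdown EC, against 251 to 302 in control EC. In macrophages it lay between 43.2 and 51.2 in the SRBI-knockdown libraries and between 37.1 and 42.4 in the chylomicron-treated ones, against 58.0 to 60.6 in control PMAC. It was lower in SRBI-knockdown than in control PMAC (log2 fold change -0.26, adjusted p = 0.0127) and also lower in chylomicron-treated than in control PMAC (log2 fold change -0.43, adjusted p = 0.000198). The difference between SRBI-knockdown and chylomicron-treated PMAC did not pass (log2 fold change 0.17, adjusted p = 0.163). Pecam1 and Cdh5, which define endothelium, averaged 168 and 304 RPM in chylomicron-treated EC, 73.9 and 46.2 in SRBI-knockdown EC, and 175 and 363 in control EC. All EC groups also held 8 fibroblast and mural markers at a summed 9567 to 20224 RPM, above the summed 139 to 972 of 10 endothelial markers. Col3a1 of that list alone held 1.46% of reads in EC chylomicron replicate 2, so the sums do not compare numbers of cells. Adgre1 and Csf1r, which define macrophages, averaged 3210 and 1198 in chylomicron-treated PMAC, 3510 and 1206 in SRBI-knockdown PMAC, and 3424 and 2037 in control PMAC. Adgre1 was at 0 in chylomicron-treated and SRBI-knockdown EC, but not throughout control EC. The 10 macrophage markers summed to 57.7 to 58.7 RPM in chylomicron-treated EC, 32.2 to 32.8 in SRBI-knockdown EC and 59.9 to 73.3 in control EC. In each EC group 3 of these 10 lay above 1 RPM in every library. EC chylomicron replicate 2 stood apart from the other 5 EC libraries on the first principal component (74.5 against -30.9 to 4.91, with 47.8% of the variance), and EC control replicate 1 held 8.35% of its reads in mitochondrial genes, against 1.16% to 3.54% in the other 5. PMAC chylomicron replicate 1 stood apart from the other 8 PMAC libraries on the second principal component (61.4 against -26.8 to 6.70, with 18.5% of the variance).

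In endothelial cells labelled chylomicron-treated, 3 of the 33 genes rose and 1 fell. The genes that rose were Slc7a11, Sod2 and Mgst1, and the gene that fell was Gsta4. Each changed by between 0.50 and 0.76 on the log2 scale. These were 9.09% and 3.03% of the members, against 5.16% and 3.28% of all 15595 genes tested. The median log2 fold change was 0.07 over the members, against -0.02 over all genes. Calls are Benjamini-Hochberg adjusted p under 0.05 over all genes tested, from limma on log2 of the normalized count plus 1, and n is 3 libraries in every group.

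Slc7a11 (chr3:50364936-50499087) encodes the cystine importer of the xCT exchanger, which supplies cysteine for glutathione. It had 838, 680.1 and 729.5 normalized counts in chylomicron-treated EC, against 388, 471 and 512 in control EC (log2 fold change 0.72, SE 0.13, adjusted p = 0.00296). The groups did not overlap. The call was lost when the empirical Bayes step had no trend (adjusted p = 0.0571). Sod2 (chr17:13007839-13018119) encodes the manganese superoxide dismutase of mitochondria, which is also a known target of NF-kB. It had 2959, 2666 and 2576 normalized counts in chylomicron-treated EC, against 1574, 1579.6 and 1693 in control EC (log2 fold change 0.76, SE 0.08, adjusted p = 9.69e-05). Every chylomicron library lay above every control library.

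Mgst1 (chr6:138140527-138156755) encodes a membrane-bound glutathione transferase that also reduces lipid hydroperoxides. It had 2480, 2123 and 2887 normalized counts in chylomicron-treated EC, against 1544, 1438 and 1485 in control EC (log2 fold change 0.73, SE 0.10, adjusted p = 0.000668). The groups did not overlap. Gsta4 (chr9:78191966-78209349) encodes a glutathione transferase with high activity towards 4-hydroxynonenal, a product of lipid peroxidation. It had 2144, 2282 and 2717 normalized counts in chylomicron-treated EC, against 3568, 2946 and 3616 in control EC (log2 fold change -0.50, SE 0.11, adjusted p = 0.00936). The groups did not overlap, but without EC control replicate 1 it no longer passed (adjusted p = 0.0735), without EC control replicate 3 (adjusted p = 0.0591) and without both libraries that stood apart (adjusted p = 0.121).

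**Figure D1:**
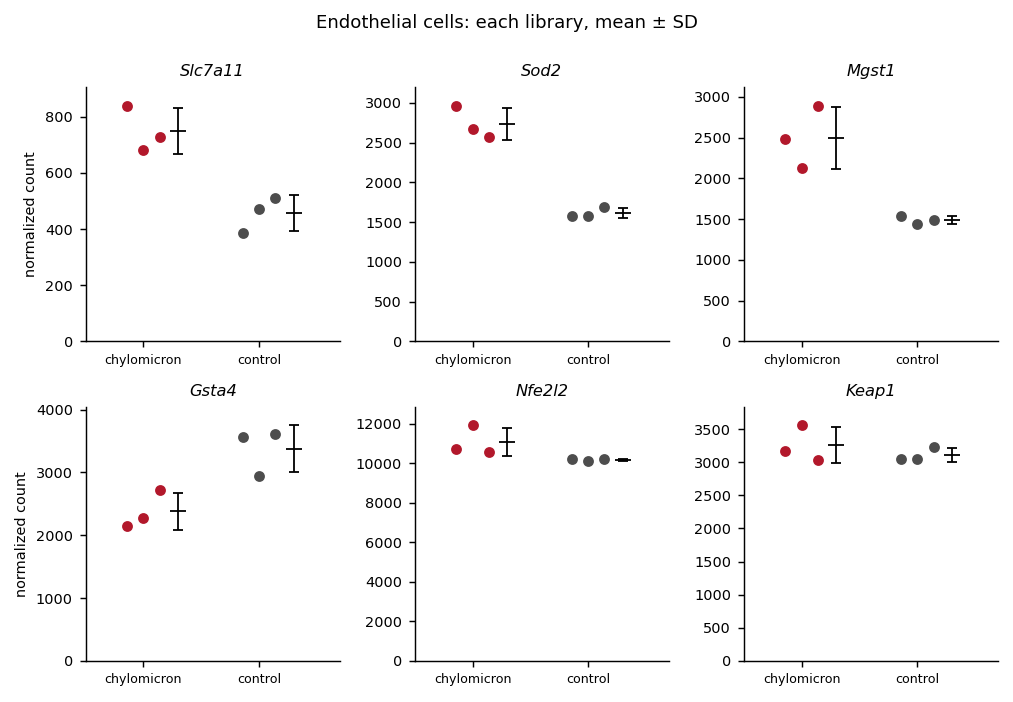
Normalized counts (y axis, from 0) of 6 genes in the 3 chylomicron-treated and 3 control endothelial libraries. Points are libraries and the bars to their right are the mean ± SD. Slc7a11, Sod2 and Mgst1 lie higher and Gsta4 lower in the chylomicron libraries without overlap, while Keap1 overlaps between the groups.

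Nfe2l2 itself (chr2:75675513-75704663) had 10717, 11906 and 10579 normalized counts in chylomicron-treated EC, against 10184, 10100 and 10203 in control EC (log2 fold change 0.12, SE 0.08, adjusted p = 0.484). The chylomicron libraries lay above the controls without passing the threshold. Keap1 (chr9:21229730-21239332) had 3172, 3557 and 3038 normalized counts in chylomicron-treated EC, against 3045, 3045 and 3227 in control EC (log2 fold change 0.07, SE 0.08, adjusted p = 0.746). These groups overlapped. Among the genes most used as a readout of NRF2, Hmox1 (heme oxygenase 1) had a log2 fold change of 0.25 (adjusted p = 0.106), with a 95% interval of 0.06 to 0.44. Nqo1, the quinone reductase, had 0.19 (adjusted p = 0.483). Gclc and Gclm, the catalytic and modifier subunits of the enzyme that starts glutathione synthesis, had 0.13 and -0.01 (adjusted p = 0.459 and 0.985). Me1, the cytosolic malic enzyme that makes NADPH, had 0.28 (adjusted p = 0.0728), and Sod1, the cytosolic superoxide dismutase, -0.23 (adjusted p = 0.112). The other members that did not pass the threshold had log2 fold changes between -0.17 (Osgin1) and 0.15 (Prdx1).

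Around the members in EC, 4 of 13 tested genes of NADPH supply rose, and no gene of the list fell, with limma, edgeR or DESeq2 or at an unadjusted limma p under 0.05. They were Mthfd1 (0.46), Rpia (0.40), Aldh1l2 (0.33) and Nadk (0.30, log2 fold changes), and the list's median was 0.19. The list also holds Rpia and Rpe of the pentose phosphate pathway, which do not make NADPH themselves. Of all genes tested in EC 5.16% rose and 3.28% fell, and list counts near these shares are not read as results. Maff, a small MAF partner of NRF2, was the single regulator that rose of 11 tested (0.75). In glutathione conjugation and export, Gstm5 rose (0.67), of 19 tested. In glutathione supply and turnover, Cbs, which makes cystathionine on the way to cysteine, fell (-0.93), as did Anpep (-0.83), of 11 tested. The oxidant source Nos2, the inducible nitric oxide synthase, rose and was low, with 35.3 ± 18.6 normalized counts in chylomicron-treated EC, against 1.84 ± 3.19 in control EC (SD, n = 3), as did Xdh, xanthine dehydrogenase (log2 fold change 0.36), of 11 tested. The fold change of Nos2 at such counts depends on the pseudocount and is not given. The control mean of Nos2 lay under the minimum level, which the gene passed only through the chylomicron-treated libraries. Its call in EC is therefore given as a description only. Of the peroxidase and superoxide list, Pon3 (-0.60) and Pon2 (-0.39), lactonases that hydrolyse oxidized lipids, fell among 11 tested. Msrb2 fell (-0.62) in the thioredoxin and methionine sulfoxide reductase list of 18, Nqo2 rose (0.33) and Aox1 fell (-0.35) among 20 other NRF2 target enzymes, and of 8 tested genes of heme handling 0 passed with limma, edgeR or DESeq2 and 1, lower, had an unadjusted limma p under 0.05.

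In the EC comparison 5 of 10 endothelial markers fell, and their summed level was 685 to 877 RPM in chylomicron-treated EC, against 894 to 972 in control EC. Of 8 fibroblast and mural markers 1 fell, and their summed level was 16117 to 17893 RPM in chylomicron-treated EC, against 17294 to 20224 in control EC. The markers' part in the changes above was not tested, and in bulk RNA fewer cells of a type and less RNA per cell cannot be told apart. With both libraries that stood apart left out, 3 members rose and the call of Gsta4 was lost.

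In macrophages labelled chylomicron-treated, 8 of the 33 genes rose and 14 fell. The genes that rose supply cystine, reduce peroxides or dismute superoxide (Slc7a11, Prdx5, Prdx6, Txn1, Sod2 and Sod3), or are Nqo1 and Esd. Of these, Sod3 passed the minimum level only through the groups where it was high. Enzymes that remove peroxides or superoxide were also among the genes that fell, namely Gpx1, Cat, Gpx4 and Sod1. Others that fell included the 4 pentose phosphate members (G6pdx, Tkt, Taldo1 and Pgd), Osgin1, Gclm, Gsr, Hmox1 and Nfe2l2. These were 24.2% and 42.4% of the members, against 16% and 17.4% of all 13630 genes tested. The median log2 fold change was -0.10 over the members, against -0.01 over all genes. With reads scaled to equal totals in place of the authors' factors, the median of all genes shifted by -0.12, 25.7% of all calls were higher, against 47.9% as deposited, and 5 members rose and 18 fell.

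Gpx1 (chr9:108339080-108340342), the cytosolic glutathione peroxidase, had the largest change of the 33 after that of the low-level Sod3. It had 8655, 9657 and 8657 normalized counts in chylomicron-treated PMAC, against 16817, 17654 and 16162 in control PMAC (log2 fold change -0.91, SE 0.06, adjusted p = 2.42e-09). Every chylomicron library lay far below every control library. Cat (chr2:103453904-103485153), catalase of the peroxisome, had 29196, 31232 and 30766, against 41381, 41854 and 41585 in control PMAC (log2 fold change -0.45, SE 0.04, adjusted p = 2.33e-07). Taldo1 (chr7:141392160-141402976), transaldolase of the pentose phosphate pathway, had 29687, 29642 and 28086 in chylomicron-treated PMAC, against 36879, 36014 and 37331 in control PMAC (log2 fold change -0.33, SE 0.04, adjusted p = 9.44e-06). Neither gene's groups overlapped. The other steps of that pathway among the members also fell. G6pdx (chrX:74409483-74428880), which makes the first NADPH, had 16143, 18008 and 16686 in chylomicron-treated PMAC, against 24006, 23508 and 22486 in control PMAC (log2 fold change -0.46, SE 0.05, adjusted p = 7.03e-07). These groups did not overlap. Tkt fell by 0.35 and Pgd by 0.26 on the log2 scale, while Me1 had -0.07 (adjusted p = 0.461).

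Slc7a11 had 129598, 120390 and 132174 normalized counts in chylomicron-treated PMAC, against 89139.9, 89351 and 100720 in control PMAC (log2 fold change 0.45, SE 0.06, adjusted p = 1.95e-05). Sod2 had 93547, 96041 and 89081, against 74899.8, 72684 and 71947 in control PMAC (log2 fold change 0.34, SE 0.05, adjusted p = 1.43e-05). Both were higher in 3 of 3 chylomicron libraries. Prdx5 and Prdx6, peroxiredoxins that reduce peroxides, rose by 0.43 and 0.26 on the log2 scale, and Esd, S-formylglutathione hydrolase, by 0.25. Nqo1 rose by 0.24 and Txn1, thioredoxin, by 0.17, and neither passed when reads were scaled to equal totals (adjusted p = 0.0674 and 0.29). Sod3 (chr5:52363804-52369738), the extracellular superoxide dismutase, was near the minimum level in macrophages, with 20.7, 32.6 and 25 normalized counts in chylomicron-treated PMAC, against 14.7, 9.03 and 3.38 in control PMAC (log2 fold change 1.59, SE 0.57, adjusted p = 0.0406). Its call was lost in 14 of 22 alternatives, among them without any single library of PMAC chylomicron replicates 2 and 3, SRBI knockdown replicates 1 to 3 or control replicates 2 and 3 (adjusted p = 0.0583 to 0.172).

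**Figure D2:**
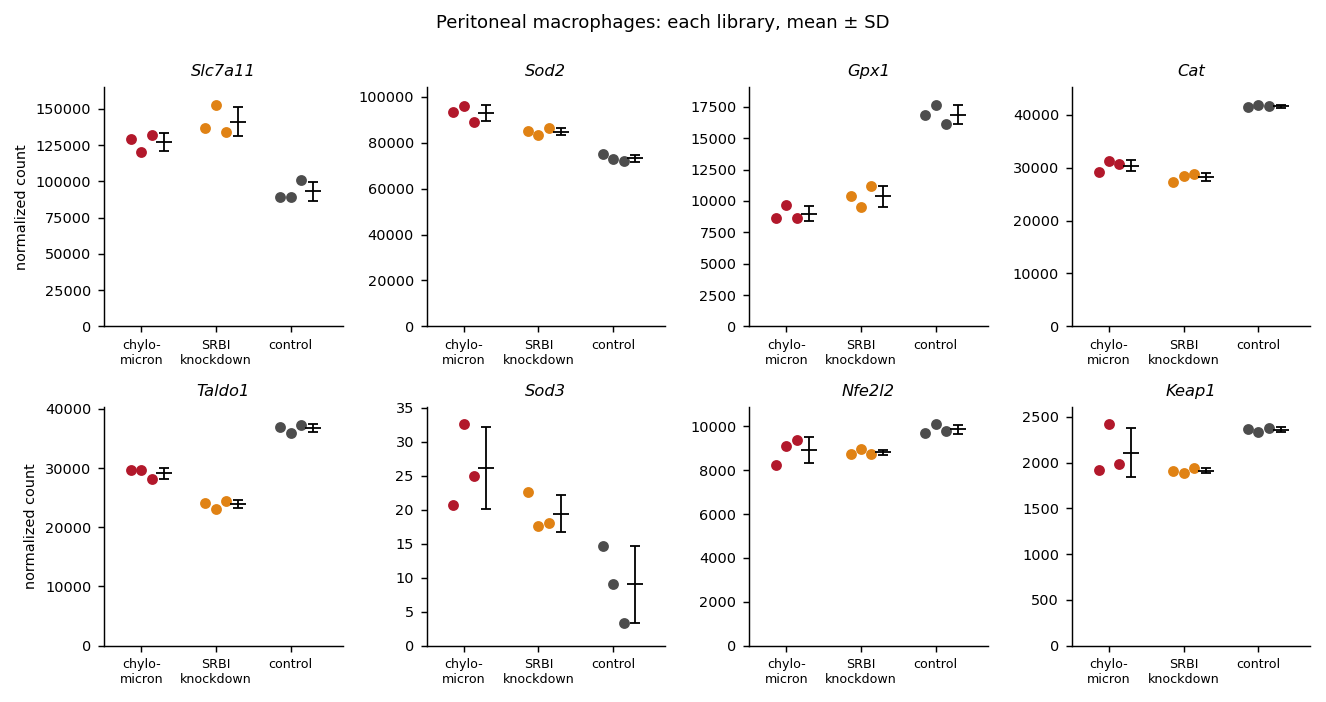
Normalized counts (y axis, from 0) of 8 genes in the 3 chylomicron-treated, 3 SRBI-knockdown and 3 control macrophage libraries. Points are libraries and bars are the mean ± SD. Gpx1, Cat and Taldo1 lie lower, and Slc7a11 and Sod2 higher, in both the chylomicron-treated and the SRBI-knockdown libraries than in control, without overlap.

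Nfe2l2 had 8248, 9095 and 9387 normalized counts in chylomicron-treated PMAC, against 9700.3, 10089 and 9767 in control PMAC (log2 fold change -0.15, SE 0.05, adjusted p = 0.0303). The groups did not overlap. Keap1 had 1923, 2420.3 and 1991 in chylomicron-treated PMAC, against 2369.7, 2334 and 2379.9 in control PMAC (log2 fold change -0.17, SE 0.07, adjusted p = 0.0891), and chylomicron replicate 2 lay above all controls. Among target genes, Hmox1 fell by 0.23, Gclm by 0.24, Gsr (glutathione reductase) by 0.23 and Osgin1, an oxidative stress growth inhibitor, by 0.44 on the log2 scale. Gpx4, which reduces lipid hydroperoxides in membranes, fell by 0.19, Sod1 by 0.14 and Gstm1, a glutathione transferase, by 0.19. Gclc (0.06), Txnrd1 (thioredoxin reductase, 0.03), Abcc1 (an exporter of glutathione conjugates, 0.00) and Blvrb (biliverdin reductase B, 0.00) did not pass the threshold. Single libraries decided some of these calls. That of Nfe2l2 was lost without chylomicron replicate 1 or any 1 control library (adjusted p = 0.0527 to 0.163), that of Hmox1 without control replicate 3 (0.0519), that of Sod1 without chylomicron replicate 2 or 3 or any 1 control library (0.0552 to 0.0996), and that of Gstm1 without chylomicron replicate 1 or 2, SRBI knockdown replicate 3 or control replicate 1 or 3 (0.0537 to 0.18).

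Around the members in chylomicron-treated PMAC, 7 of 12 tested genes of NADPH supply fell and 0 rose with limma, edgeR or DESeq2 or at an unadjusted limma p under 0.05, with a list median of -0.29. They included Idh1 (-0.75) and Idh2 (-0.67), the NADP-dependent isocitrate dehydrogenases. Of all genes tested in this comparison 16% rose and 17.4% fell, and list counts near these shares are not read as results. Among 11 regulators 4 rose and 3 fell. Maff rose (1.24), while the repressors Bach1 (-0.58) and Bach2 (-1.20) fell. Slc3a2, the partner chain of SLC7A11, rose (0.55) and was the single gene that rose of 10 in glutathione supply and turnover, where Ggt5 (-1.75) and Slc1a5 (-0.64) fell. Of 19 other NRF2 target enzymes 2 rose and 8 fell, among them Ephx1, microsomal epoxide hydrolase (-1.36), and Aldh2 (-0.68). In glutathione conjugation and export 4 of 16 rose and 7 fell, with Gstt3 (1.07) and the exporter Abcc3 (-0.83) as examples. In the thioredoxin and methionine sulfoxide reductase list 1 of 18 rose (Prdx4, 0.46) and 6 fell, among them Msrb1 (-0.72) and Sesn1 (-1.02). In heme handling 3 of 7 fell, with Hebp1 at -1.60, and in peroxidases and superoxide handling 3 of 12 rose, with Pon3 at 0.97, and 2 fell, Selenop (-0.87) and Nnt (-0.67). Of 10 oxidant sources Nos2 (32.6 ± 19.2 normalized counts, against 9.23 ± 8.15 in control PMAC) and Rac2 (0.21) rose and 3 fell, among them Ncf1 (-0.40) and Xdh (-0.41). The control mean of Nos2 lay under the minimum of 10, so its call is given as a description only.

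Of 10 macrophage markers 3 rose and 5 fell in chylomicron-treated PMAC, and their summed level was 29144 to 31286 RPM, against 48201 to 50727 in control PMAC. The marker Lyz2 alone held 3.98% to 4.20% of reads in control PMAC, most of that sum, so the sum mainly follows this gene. Of 6 neutrophil markers both that could be tested rose, the summed level was 67.5 to 78.2 RPM, against 65.6 to 71.1 in control PMAC, and the defining markers Ly6g, Elane and S100a9 were at 0 in all these libraries. Of 8 fibroblast and mural markers 6 were tested, 2 rose and 4 fell, and the summed level was 43.8 to 61.6 RPM, against 65.5 to 77 in control PMAC. Of mesothelial markers 1 of 3 tested fell (sum 2.06 to 2.68 RPM, against 4.51 to 5.63 in control PMAC), and of endothelial markers 1 of 4 (sum 9.10 to 13.5 RPM, against 12.6 to 15.4). The part of these markers in the members' changes was not tested. Without PMAC chylomicron replicate 1, which stood apart, 8 members rose and 12 fell. With PMAC chylomicron replicates 1 and 2, the PMAC libraries with the fewest reads, both left out, 6 members rose and 11 fell.

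In macrophages labelled SRBI-knockdown, 3 of the 33 genes rose and 18 fell relative to control (3 and 17 without PMAC chylomicron replicate 1, which enters the shared fit). Slc7a11, Nqo1 and Sod2 rose. G6pdx, Tkt, Taldo1 and Pgd of the pentose phosphate pathway fell. The others that fell were Cat, Gpx1, Gpx4, Sod1, Gss, Gsr, Gclm, Srxn1, Prdx1, Blvrb, Gstm1, Osgin1, Nfe2l2 and Keap1. These were 9.09% and 54.5% of the members, against 14.7% and 15.5% of all genes tested, and the median log2 fold change was -0.24 over the members, against 0.01 over all genes. This comparison and that of chylomicron-treated PMAC share the 3 control libraries, so their values are given side by side and their likeness is not read as a result. With reads scaled to equal totals 31.2% of all calls were higher, against 48.6% as deposited.

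Taldo1 had 24132, 23122 and 24472 normalized counts in SRBI-knockdown PMAC, against 36879, 36014 and 37331 in control PMAC (log2 fold change -0.62, SE 0.04, adjusted p = 4.61e-09). Cat had 27336, 28455 and 28770.5, against 41381, 41854 and 41585 in control PMAC (log2 fold change -0.56, SE 0.04, adjusted p = 1.61e-08). Gpx1 had 10374, 9508 and 11232, against 16817, 17654 and 16162 in control PMAC (log2 fold change -0.70, SE 0.06, adjusted p = 7.34e-08). In each of the 3 genes every knockdown library lay below every control library. Slc7a11 had 137138, 152737 and 133942 in SRBI-knockdown PMAC, against 89139.9, 89351 and 100720 in control PMAC (log2 fold change 0.60, SE 0.06, adjusted p = 8.13e-07). Sod2 had 84974, 83173 and 86265, against 74899.8, 72684 and 71947 in control PMAC (log2 fold change 0.21, SE 0.05, adjusted p = 0.00178), and Nqo1 rose by 0.32. All knockdown libraries lay above all controls for these 3 genes. Sod3 had 22.6, 17.6 and 18 normalized counts, against 14.7, 9.03 and 3.38 in control PMAC, and did not pass (adjusted p = 0.129).

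Nfe2l2 had 8743, 8940.4 and 8734 normalized counts in SRBI-knockdown PMAC, against 9700.3, 10089 and 9767 in control PMAC (log2 fold change -0.16, SE 0.05, adjusted p = 0.0197). Keap1 had 1914, 1887 and 1941, against 2369.7, 2334 and 2379.9 in control PMAC (log2 fold change -0.30, SE 0.07, adjusted p = 0.00402). Both lay lower in every knockdown library than in every control library. Of the glutathione genes, Gss, glutathione synthetase, fell by 0.46, Gsr by 0.26 and Gclm by 0.24, while Gclc had 0.14 (adjusted p = 0.0636). Of the thioredoxin genes, Srxn1, sulfiredoxin, fell by 0.30 and Prdx1 by 0.17 (adjusted p = 0.0499), while Prdx5 (0.06) and Prdx6 (0.05) did not pass. G6pdx fell by 0.45, Tkt by 0.38, Pgd by 0.28, Gpx4 by 0.40, Sod1 by 0.25, Blvrb by 0.36, Gstm1 by 0.43 and Osgin1 by 0.48. Hmox1, with -0.02 (adjusted p = 0.887), did not pass. The call of Prdx1 was lost in 14 of 22 alternatives, among them without any 1 of chylomicron replicates 1 to 3, knockdown replicates 1 and 2 or control replicates 1 and 3 (adjusted p = 0.0518 to 0.217). That of Nfe2l2 was lost without knockdown replicate 1 or 3 or control replicate 2 (0.0536 to 0.0794).

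Of the accompanying lists, 7 of 12 NADPH supply genes fell in SRBI-knockdown PMAC, and 0 rose by the same tools and at an unadjusted limma p under 0.05, with Idh2 at -0.61 and Idh1 at -0.42. Maff (0.94) and Mafk (0.25) rose and Bach1 (-0.60) and Sqstm1 (-0.41), the autophagy receptor that binds KEAP1, fell, of 11 regulators. Of all genes tested in this comparison 14.7% rose and 15.5% fell, and list counts near these shares are not read as results. In glutathione supply and turnover Slc3a2 rose (0.53) and 2 of 10 fell, with Ggt5 at -2.59. Of 19 other NRF2 target enzymes 1 rose, Ugdh (0.47), and 10 fell, with Ephx1 at -1.72. In glutathione conjugation and export 3 of 16 rose and 5 fell, with Gsta3 at -0.69. In the thioredoxin and methionine sulfoxide reductase list 3 of 18 rose and 8 fell, with Msrb1 at -0.84. Peroxidases and superoxide handling had 3 that rose and 3 that fell of 12, heme handling 3 that fell of 7, and the oxidant sources 5 that fell of 10, among them the NADPH oxidase subunits Ncf1 (-0.31), Cyba (-0.20) and Ncf4 (-0.16). The 10 macrophage markers, 2 of which rose and 7 of which fell, summed to 33158 to 36769 RPM in SRBI-knockdown PMAC, against 48201 to 50727 in control PMAC. Most of the control sum is Lyz2, with 3.98% to 4.20% of reads. Of the fibroblast and mural markers 2 rose and 3 fell of 6 tested, with a sum of 46.3 to 58.0 RPM, against 65.5 to 77 in control PMAC. Of mesothelial markers 2 of 3 tested fell (sum 1.59 to 2.33 RPM, against 4.51 to 5.63), and of endothelial markers 1 of 4 tested fell (sum 7.59 to 8.85 RPM, against 12.6 to 15.4 in control PMAC). The part of these markers was not tested.

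**Figure D3:**
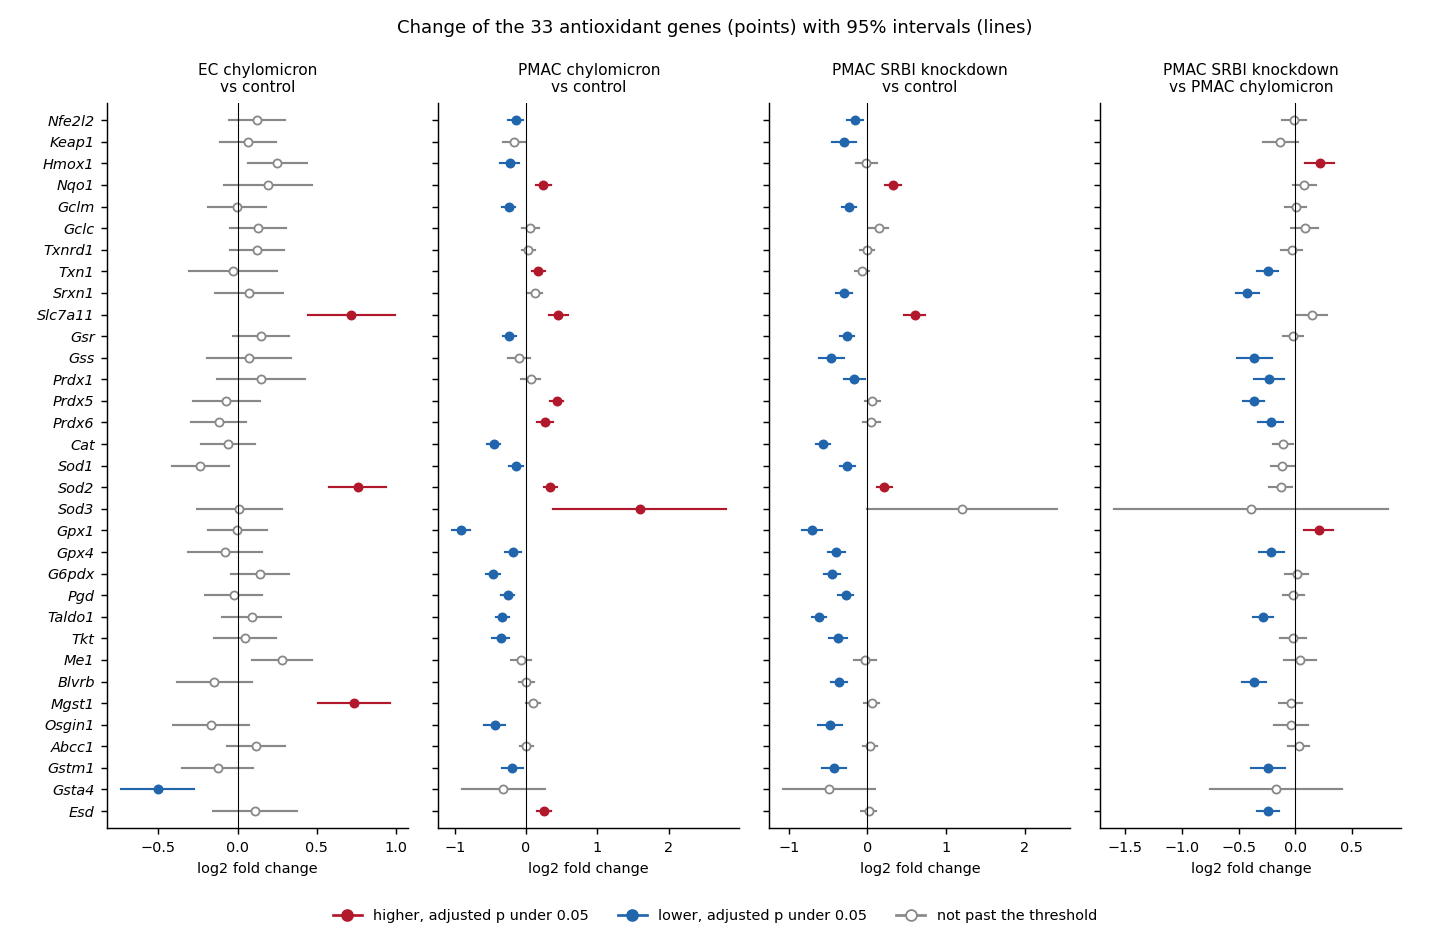
Log2 fold change (x axis, ranges differ between panels) of each of the 33 genes (y axis) in 4 comparisons, with 95% intervals from limma. Filled points passed adjusted p under 0.05, and these number 3 higher and 1 lower in EC chylomicron, 8 and 14 in PMAC chylomicron, 3 and 18 in PMAC SRBI knockdown, and 2 and 11 in PMAC SRBI knockdown against PMAC chylomicron.

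Set directly against chylomicron-treated PMAC, SRBI-knockdown PMAC had 2 members higher and 11 lower, each by less than 0.5 on the log2 scale. With reads scaled to equal totals 63.8% of all calls were higher, against 50% as deposited. These were 6.06% and 33.3% of the members, against 5.6% and 5.59% of all genes tested, and the median log2 fold change was -0.11 over the members, against 0.01 over all genes. Among the members that passed, the decreases were largest in Srxn1 and Prdx5, given here in full after their values were seen. Srxn1, which restores overoxidized peroxiredoxins, had 21434, 22822 and 22298 normalized counts in SRBI-knockdown PMAC, against 29367, 28778 and 31134 in chylomicron-treated PMAC (log2 fold change -0.42, SE 0.05, adjusted p = 2.13e-05). Prdx5 had 74274, 73136 and 74089, against 94987, 96936 and 93970.5 in chylomicron-treated PMAC (log2 fold change -0.37, SE 0.04, adjusted p = 4.08e-05). Neither pair of groups overlapped. Txn1 fell by 0.24, Prdx1 by 0.24 and Prdx6 by 0.22. Blvrb fell by 0.36, Gss by 0.36, Taldo1 by 0.29, Esd by 0.24, Gstm1 by 0.24 and Gpx4 by 0.21. Hmox1 rose by 0.21 and Gpx1 by 0.20. Slc7a11 (0.15, adjusted p = 0.152), Nfe2l2 (-0.01) and Keap1 (-0.13) did not pass.

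Without PMAC chylomicron replicate 1, 8 members were lower and both higher calls were lost. Of these 13 calls 4 held in all 22 alternatives, those of Srxn1, Prdx5, Blvrb and Taldo1. Single libraries ended the calls of Hmox1 (chylomicron replicate 1 or 2, knockdown replicate 2 or 3, adjusted p = 0.0618 to 0.132), Gpx1 (chylomicron 1 or 3, knockdown 1 or 3, control 1, 0.0555 to 0.164), Prdx1 (chylomicron 1, knockdown 1 or 2, 0.054 to 0.126), Prdx6 (chylomicron 1, knockdown 1, 0.0638 to 0.0765), Gpx4 (knockdown 1 or 2, 0.0519 to 0.0851) and Gstm1 (chylomicron 1 or 3, knockdown 1 or 3, control 1, 0.0539 to 0.221). Those of Txn1, Esd and Gss were lost with chylomicron replicates 1 and 2 both left out, when 5 members fell and both higher calls were lost. Around the members, 3 of 12 NADPH supply genes rose (Idh1 0.33, Rpe 0.25, H6pd 0.16), and 4 of 11 regulators fell, among them Sqstm1 (-0.29) and Maff (-0.30). Of all genes tested in this comparison 5.6% rose and 5.59% fell. Txnip, the inhibitor of thioredoxin, rose (0.52), as did Glrx (0.29). In this comparison 1 macrophage marker rose and 4 fell of 10, and of endothelial markers 1 of 4 tested fell, and their part in the result was not tested.

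Whether the chylomicron change of a gene differed between EC and PMAC was tested as the difference of the changes in a single fit of 12 libraries, in 12461 genes that passed the minimum in both tables. For 10 members the change was higher in EC and for 3 it was lower (9 and 3 without PMAC chylomicron replicate 1), 30.3% and 9.09% of the members, against 10.9% and 7.03% of all genes, and the median difference was 0.17 over the members, against 0.02 over all genes. Gpx1 had the smallest adjusted p. In EC it had 7449, 7384 and 8375 normalized counts in chylomicron-treated libraries, against 7761, 7214 and 8259 in control libraries, and did not pass (adjusted p = 0.995). It fell in PMAC, and the difference of the changes was 0.91 (SE 0.10, adjusted p = 2.31e-05). For Mgst1, higher in chylomicron-treated EC and not past the threshold in PMAC (0.09), the difference was 0.64 (adjusted p = 0.00184). For Sod2, which rose in both, it was 0.41 (adjusted p = 0.00546). Of the pentose phosphate genes, G6pdx (0.60), Taldo1 (0.42) and Tkt (0.40) had higher changes in EC, as had Me1 (0.35), Hmox1 (0.48), Cat (0.39) and Gsr (0.38). Prdx5 (-0.50), Prdx6 (-0.38) and Sod3 (-1.58) had lower changes in EC, and Sod3 passed the minimum in PMAC only through the groups where it was high. For Slc7a11 the difference did not pass (0.26, 95% interval -0.04 to 0.56, adjusted p = 0.229), nor for Nfe2l2 (0.27, adjusted p = 0.0536). Among accompanying lists, 9 of 12 NADPH supply genes had higher changes in EC, against 10.9% of all genes, with Idh2 at 0.85 and Mthfd1 at 0.84.

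**Figure D4:**
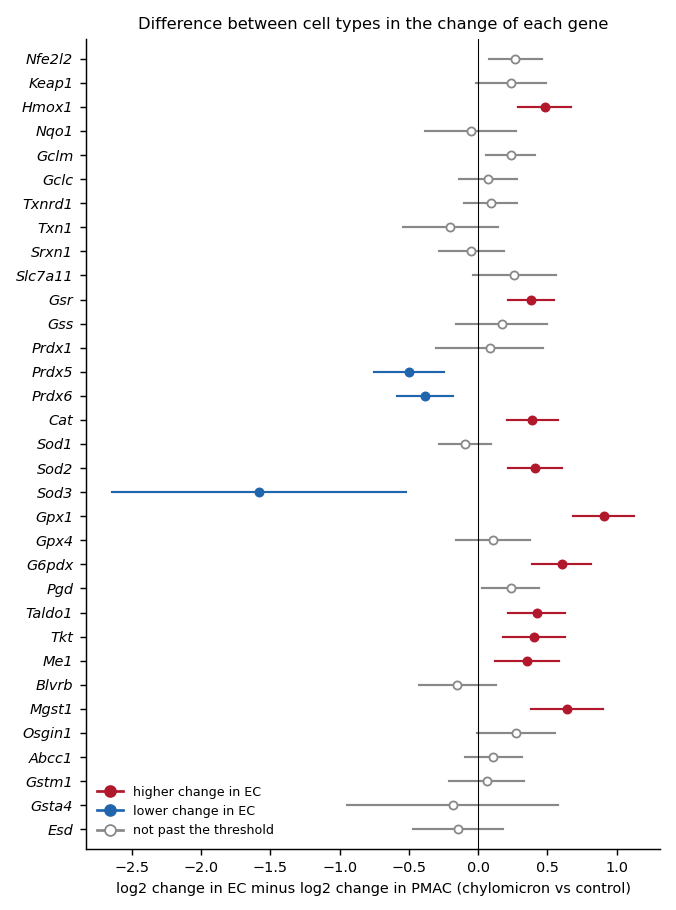
Difference between endothelial cells and macrophages in the log2 change from control to chylomicron-treated (x axis, EC minus PMAC) for the 33 genes (y axis), with 95% intervals. Filled points passed adjusted p under 0.05, 10 to the right of 0 and 3 to the left, and Gpx1 has the highest difference at 0.91.

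The tables were scaled separately. With reads scaled to equal totals the median of all genes shifted by 0.14 in this difference, the share of calls that were higher in EC was 81%, against 60.7% as deposited, and the calls of Prdx5 and Prdx6 were lost (adjusted p = 0.055 and 0.11). The calls of Sod3 and Me1 were each lost without any 1 of 8 libraries: for Sod3 EC chylomicron replicates 1 and 3, EC control replicates 1 to 3, PMAC chylomicron replicates 2 and 3 and PMAC control replicate 2 (0.0553 to 0.0835), and for Me1 EC chylomicron replicate 2, EC control replicates 1 and 2, PMAC chylomicron replicates 1 and 2 and PMAC control replicates 1 to 3 (0.0642 to 0.0956).

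Endothelial cells labelled SRBI-knockdown stood in a table without controls, so their levels are set beside the other EC groups in RPM, without a test. In 25 of the 33 genes every knockdown library lay above every control library, in 2 every knockdown library lay below, and 6 overlapped. Over 13826 genes, 37.4% lay above and 27.5% below in the same way. Slc7a11, the cystine importer, had 176, 162 and 192 RPM in the knockdown libraries and 19.5, 15.9 and 17.5 in the chylomicron-treated ones, against 8.78, 11 and 12 in control EC, a 16.6-fold ratio of the knockdown mean to the control mean. Mgst1 averaged 150.2 ± 14.4 in SRBI-knockdown EC and 58.9 ± 9.95 in chylomicron-treated EC, against 34.4 ± 0.863 in control EC (SD, n = 3). Gsta4, which was lower in chylomicron-treated EC, averaged 309 ± 23 in SRBI-knockdown EC, 56.1 ± 8.11 in chylomicron-treated EC and 78.1 ± 8.58 in control EC. Me1 averaged 104 ± 6.76 in SRBI-knockdown EC, against 32.6 ± 2.94 in control EC. Nqo1 averaged 56.2 ± 6.16, against 23.1 ± 3.05, and Gclc 87.6 ± 6.41, against 38.4 ± 2.75. Sod2 averaged 61.3 ± 4.06, against 37.4 ± 2.18 in control EC.

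The 2 genes that lay below control were Cat, with 59.4, 70.8 and 63.8 RPM in SRBI-knockdown EC, against 102, 111 and 115 in control EC, and Gstm1, with 401 ± 22.6, against 451 ± 29.3. Nfe2l2 averaged 245 ± 5.24, against 235 ± 4.8, a ratio of 1.04 that went below 1 under TMM scaling, and Keap1 87.2 ± 0.772, against 71.9 ± 3.62. Together the 33 genes held 0.489% ± 0.0293 of reads in SRBI-knockdown EC and 0.374% ± 0.0216 in chylomicron-treated EC, against 0.358% ± 0.023 in control EC (SD, n = 3). The knockdown libraries were in other respects apart: the 10 endothelial markers summed to 139 to 148 RPM in SRBI-knockdown EC, against 894 to 972 in control EC, and 5 mesothelial markers to 408 to 448, against 24.1 to 26.6. The part of these, of depth and of the separate table was not tested, and the knockdown and the table cannot be told apart. With TMM scaling of the recovered reads, 20 of the 33 genes lay above, 3 below and 10 overlapped, against 30.8% above and 34.7% below over all genes, so the lean of the background turned with the scaling.

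Most of the 33 genes were far more abundant in control macrophages than in control endothelial cells. In control PMAC 28 of the 33 genes lay above every control EC library and 4 below, with 1 overlapping (Gpx4), while of the 12461 genes shared by both tables, 29.1% lay above and 56.7% below. With TMM scaling 31 members lay above and 2 below, against 44.2% and 40.9% of all genes, so the lean of the background turned here too. The 33 genes together held 4.02% ± 0.13 of reads in control PMAC, against 0.358% ± 0.023 in control EC, and their median log2 ratio was 3.13, against -0.44 over all genes. Hmox1 had 4979.9, 4958 and 5496 RPM in control PMAC, against 23.2, 25.3 and 23.7 in control EC. Slc7a11 had 2266, 2272 and 2593, against 8.78, 11 and 12 in control EC. These were 214-fold and 224-fold ratios of the means. Sod2 averaged 1868 ± 31.2 RPM in control PMAC, against 37.4 ± 2.18 in control EC, Gclm 1086 ± 22.8, against 34.5 ± 1.16, and Prdx1 11335 ± 517, against 410.2 ± 38.5. Nfe2l2 averaged 252 ± 4.97, against 235 ± 4.8. The 4 genes below were Keap1 (60.3 ± 0.967, against 71.9 ± 3.62), Sod1 (135 ± 2.49, against 160.3 ± 11.5), Gsta4 (5 ± 1.03, against 78.1 ± 8.58) and Sod3 (0.23 ± 0.144, against 45.8 ± 2.41). For Keap1 and Sod1 the direction turned with TMM scaling (log2 ratio 0.23 and 0.24). Cell type and table cannot be told apart here, and no test was made.

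**Figure D5:**
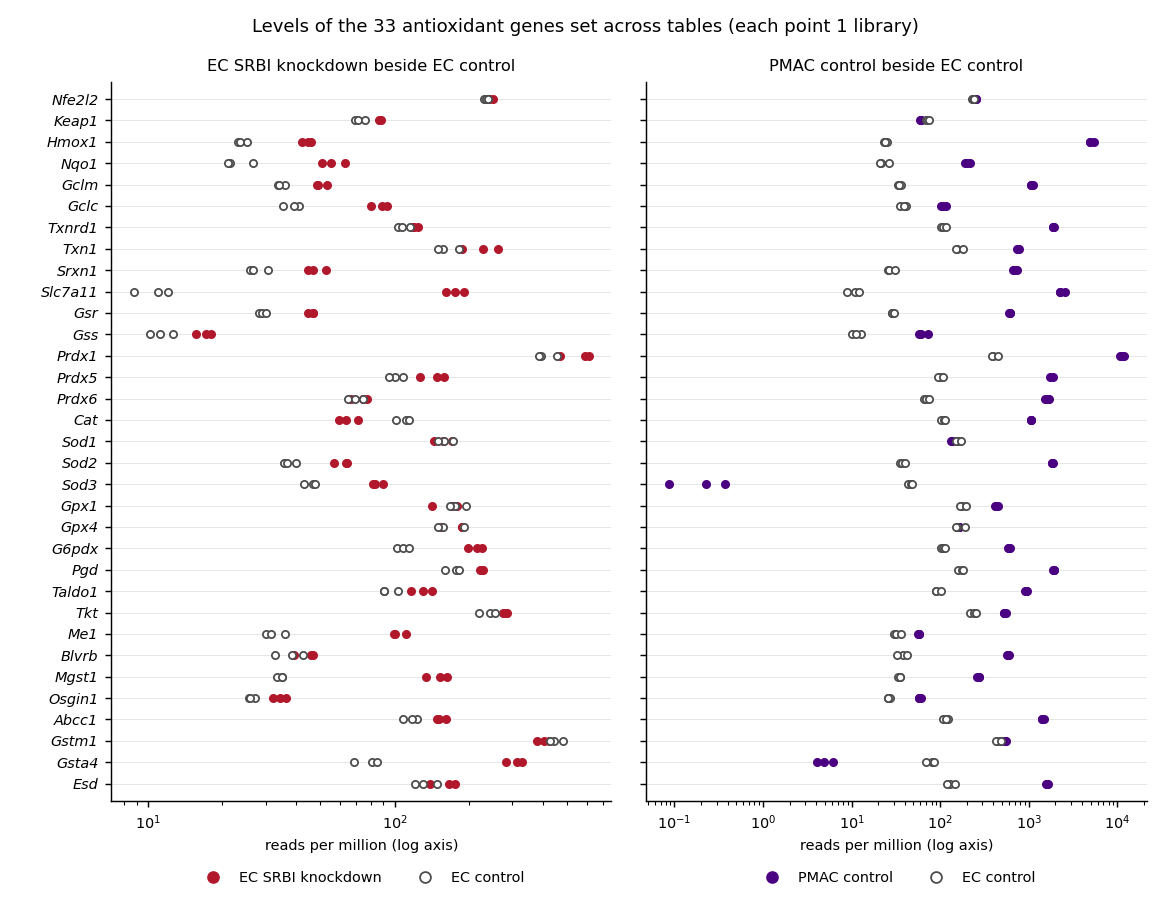
RPM (x axis, log scale) of the 33 genes (y axis) in each library: left, SRBI-knockdown (filled) and control (open) endothelial cells; right, control macrophages (filled) and control endothelial cells (open). In the left panel Slc7a11 has the widest gap, and in the right panel 28 genes lie higher in macrophages while Sod3 and Gsta4 lie far lower.

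Some of these values carry a counting limit. By RefSeq spans 11 of the 33 genes overlap another gene, G6pdx with Ikbkg and Prdx5 with Trmt112 being the pairs whose partners were well above the minimum in both tables. The strand setting of the counting is not given in the sources used here, so reads of such partners could not be told apart. Gstm1 and Gsta4 belong to families of closely similar glutathione transferases, and how reads matching more than a single gene were counted is likewise not given.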

How the data were processed

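RNA libraries were made with a stranded mRNA kit, per the labels' protocols, and the submitters' processing notes name the tools featureCounts, bcl2fastq, Subread 1.6.3 and STAR 2.7.3a, with GRCm38 and mm10 as builds and no role for any of them. The authors deposited a signal per gene on the scale of normalized counts in 3 separately scaled tables. Every value was a whole number of reads times 1 factor per library (100% within 0.01 reads), so the reads could be recovered for the count-based alternatives and for RPM, reads per 1000000 reads assigned to genes.

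The members and gene lists were chosen with earlier results of these data known. Genes with a table mean of at least 10 were fitted with limma 3.58.1 (R 4.3.3) on log2 of the normalized count plus 1, with a group term and empirical Bayes with trend, two-sided, over 6 EC, 9 PMAC or, for the difference between cell types, 12 libraries. Fold changes on this scale understate the change of low genes. Benjamini-Hochberg adjustment ran over all genes tested. Levels across tables were not tested. Alternatives used edgeR 4.0.16 and DESeq2 1.42.0 on recovered reads, other scalings, filters and pseudocounts, and left out libraries. Members in full are those past the threshold with an absolute log2 fold change of at least 0.5, plus Nfe2l2 and Keap1; of each accompanying list up to 4 genes a comparison were eligible by smallest p. Levels are compared for the same gene only, since no transcript lengths were used. No library pair within a group was identical among 18 compared. The labels do not say that replicates were separate cultures or animals, so p-values measure the spread between libraries, which may be technical.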

Additional observations from a re-analysis of the deposited data

Results flagged for a closer look

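The chylomicron change of 13 of the 33 genes differed between endothelial cells and macrophages by the test of the difference itself (limma, n = 3 libraries per group, log2 change in EC minus log2 change in PMAC). The change was higher in EC for Gpx1 (0.91), Mgst1 (0.64), G6pdx (0.60), Hmox1 (0.48), Taldo1 (0.42), Sod2 (0.41), Tkt (0.40), Cat (0.39), Gsr (0.38) and Me1 (0.35). It was lower in EC for Sod3 (-1.58), Prdx5 (-0.50) and Prdx6 (-0.38). Sod3 passed the minimum level in PMAC only through the groups where it was high. The adjusted p ranged from 2.31e-05 (Gpx1) to 0.0393 (Sod3). The groups hold 3 libraries each, too few for a test of single outlying libraries.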

How the results depend on the processing

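Over 18 alternatives for EC and 22 for each PMAC comparison, 2 of 4 member calls held throughout in EC chylomicron, 14 of 22 in PMAC chylomicron, 19 of 21 in PMAC SRBI knockdown and 4 of 13 in PMAC SRBI knockdown against PMAC chylomicron, and 7 of 13 over 24 alternatives for the difference between EC and PMAC. No called member turned its direction. Reads scaled to equal totals gave 5 higher members for PMAC chylomicron, member medians of -0.21, -0.32 and -0.073 in the 3 PMAC comparisons and 0.31 for the difference, with 1 lower member there. In the comparison of PMAC SRBI knockdown with PMAC chylomicron the higher calls numbered 0 without a filter, without trend and with only the 6 libraries compared, and 1 with array weights. The lower calls there numbered 6 without trend, and the median was -0.076 with a minimum mean of 50. With PMAC chylomicron replicates 1 and 2 left out (the lone sample is assumed to vary like the other groups), that comparison had 0 higher, 5 lower and a median of -0.081, and the difference between cell types 0 lower. EC chylomicron had 0 lower calls without trend and without both libraries that stood apart, and PMAC SRBI knockdown 5 higher calls with array weights. These libraries and the leave-one-out of levels set across tables were chosen after seeing the data.

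Leaving out single libraries gave 0 to 1 lower calls in EC chylomicron, a median of -0.13 to -0.042 in PMAC chylomicron, 0 to 2 higher calls, 7 to 11 lower calls and a median of -0.11 to -0.058 in PMAC SRBI knockdown against PMAC chylomicron, and a median difference of 0.12 to 0.24 between EC and PMAC. With TMM scaling 2 members lay below EC control in PMAC control, Keap1 and Sod1 had log2 ratios of 0.23 and 0.24, and Nfe2l2 in SRBI-knockdown EC had -0.046. Deviations from the group mean correlated at -0.16 to 0.17 between same-numbered libraries in EC and at -0.10 to 0.07 in PMAC. Differently numbered libraries had -0.40 to 0.32 in EC and -0.04 to 0.11 in PMAC. With 3 libraries a group these values cannot decide whether libraries were paired. With the replicate block 7 members rose and 12 fell in PMAC chylomicron, 1 rose in PMAC SRBI knockdown against PMAC chylomicron, 17 fell in PMAC SRBI knockdown, and the EC counts were 3 and 1. Of all genes in EC, 805 higher and 512 lower calls became 378 and 209 without trend, 1022 and 823 with array weights, and 470 to 602 and 261 to 297 without control replicate 1, 2 or 3 in turn, and 507 and 420 without both libraries that stood apart. In PMAC SRBI knockdown against PMAC chylomicron 763 and 762 became 284 and 318 without trend, 400 and 419 without knockdown replicate 1, 455 and 480 without knockdown replicate 2, and 345 and 277 without chylomicron replicates 1 and 2. In PMAC chylomicron 2178 and 2372 became 1306 and 3766 with equal totals, and in the difference 1355 and 876 became 2298 and 538, or 1019 and 549 without PMAC chylomicron replicates 1 and 2. Causes were not tested. Precision is limited for Sod3, at 0.23 ± 0.144 RPM in control PMAC (SD, n = 3).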
